A study of Homo sapiens with 2 samples.

Results

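The windows described here are those of named antisense RNA genes, whose names carry the symbol of another gene, the sense gene, followed by -AS and a number, as in GATA2-AS1. They were chosen by name alone, leaving out antisense genes of the HOX clusters and DDIT4-AS1, and number 1238 of the 36814 gene start windows in the deposited table. Each window spans 6000 bases and is centred on the start that the annotation gives. The study recorded nascent transcription by precision run-on sequencing (PRO-seq) of unperturbed K562 cells, a long-established human line from chronic myelogenous leukaemia that expresses erythroid genes. In this assay engaged polymerases extend their RNA with biotinylated nucleotides, here for 5 min at 30 °C, and the RNA caught on streptavidin beads is sequenced. The 2 libraries came from untreated cells (1 library) and from cells given 0.1% DMSO, a common drug solvent, for 1 h (1 library), and all cells grew in RPMI with serum. With 1 library per treatment there is no replicate and no test: ratios compare these libraries, and all intervals are exact 95% intervals that cover counting error only.

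An antisense RNA gene is transcribed from the strand opposite a named gene, from within that gene, across its start or away from it. Some antisense RNAs act on the neighbouring gene, by bringing chromatin regulators to it, by polymerases meeting on the template or by pairing with the sense RNA, and for many no function is known. Since promoters of human genes are commonly transcribed in both directions and PRO-seq also reads unstable RNA, an antisense start near a sense start is a place where reads of either strand can be found.

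The promoters of 4 members are shown first, as examples of antisense starts with reads that differ in their number of CpGs. Those of PROSER2-AS1 and ENTPD1-AS1 were picked after their values were seen, as members that lie far from the sense start and in no part of another RefSeq gene. Each runs from 250 bases before to 50 bases after the RefSeq start on GRCh38.p14, 5′ to 3′ on the gene's own strand, with CpG dinucleotides in capitals. They are GATA2-AS1 at chr3:128488953-128489252 (plus strand), PROSER2-AS1 at chr10:11894661-11894960 (minus strand), ENTPD1-AS1 at chr10:96090186-96090485 (minus strand) and SLC25A25-AS1 at chr9:128118685-128118984 (minus strand).
GATA2-AS1: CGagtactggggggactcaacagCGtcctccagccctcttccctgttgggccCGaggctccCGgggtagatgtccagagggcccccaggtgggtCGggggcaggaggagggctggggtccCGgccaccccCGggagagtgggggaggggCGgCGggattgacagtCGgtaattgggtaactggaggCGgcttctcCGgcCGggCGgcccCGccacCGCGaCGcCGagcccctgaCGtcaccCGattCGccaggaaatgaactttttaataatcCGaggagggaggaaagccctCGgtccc
PROSER2-AS1: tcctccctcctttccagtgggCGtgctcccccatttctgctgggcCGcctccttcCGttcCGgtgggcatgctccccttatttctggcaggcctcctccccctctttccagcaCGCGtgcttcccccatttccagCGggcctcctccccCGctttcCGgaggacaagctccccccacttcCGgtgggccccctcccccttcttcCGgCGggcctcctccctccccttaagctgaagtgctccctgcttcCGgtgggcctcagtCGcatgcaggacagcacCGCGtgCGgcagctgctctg
ENTPD1-AS1: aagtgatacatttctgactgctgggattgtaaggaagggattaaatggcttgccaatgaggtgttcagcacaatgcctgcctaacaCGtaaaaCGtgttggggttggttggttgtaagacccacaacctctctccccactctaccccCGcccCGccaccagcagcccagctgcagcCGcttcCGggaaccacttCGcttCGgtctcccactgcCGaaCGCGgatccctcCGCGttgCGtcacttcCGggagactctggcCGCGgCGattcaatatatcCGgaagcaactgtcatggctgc
SLC25A25-AS1: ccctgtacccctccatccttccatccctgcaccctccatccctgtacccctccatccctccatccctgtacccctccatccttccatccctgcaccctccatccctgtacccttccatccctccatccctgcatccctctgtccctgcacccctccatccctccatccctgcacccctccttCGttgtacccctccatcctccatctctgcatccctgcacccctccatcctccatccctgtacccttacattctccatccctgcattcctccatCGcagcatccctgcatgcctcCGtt

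These promoters hold 24, 17, 19 and 3 CpGs in the order shown, and their GC contents are 68.3%, 67.3%, 57% and 60.7%. That of GATA2-AS1 holds the cyclic AMP response element TGACGTCA, a motif found on either strand in 1.85% of 35116 RefSeq promoters of this length. PROSER2-AS1 and ENTPD1-AS1 hold the ETS family motif CCGGAAG (10.3% of all promoters), and GATA2-AS1 and ENTPD1-AS1 hold CCAAT (34.6%) and the GC box GGGCGG (45%). None of the 4 held TATAAA (11.5% of all promoters) or the GATA factor motif GATAAG (6.36%), which says only that these letters are not in these windows. The GATA2-AS1 window had 242 untreated and 900 DMSO reads, that of PROSER2-AS1 125 and 391, that of SLC25A25-AS1 134 and 581, and that of ENTPD1-AS1 20 and 96. The CpG-poor promoter thus lay in a window with reads close in number to those of the CpG-rich PROSER2-AS1.

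In 4 members the window lies on the same strand as that of the gene it is named for, and 2 of these are among the pairs compared. The 1238 windows carry 1236 names and belong to 1115 sense genes. Of the suffixes 1113 are AS1, 93 AS2, 22 AS3, 7 AS4 and 3 AS5. For 1225 of them the table also holds the window of the sense gene, and these are 1103 different windows. In all 92 sense genes have more than 1 antisense window, and 3 (DLGAP1, NAV2 and ZBTB20) have 5. Chromosome 3 holds 182 of the members (14.7%), against 5.26% of all windows. The RefSeq gene table of GRCh38.p14 holds 1094 of the names as symbols and 66 as synonyms, of which 40 belong to genes now named -DT, for divergent transcript.

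The libraries hold 2136291 untreated and 4154920 DMSO reads, of which ribosomal RNA windows took 71.5% and 42.2%. Of 14 erythroid marker windows 11 reached 1 CPM (counts scaled to the total of the library) in both libraries, with 1191 untreated and 3443 DMSO reads in all, while 0 of 6 myeloid, 3 of 7 lymphoid, 1 of 7 epithelial, liver and fibroblast and 1 of 16 neural marker windows did. The neural markers together held 50 untreated and 1210 DMSO reads, where the ratio of the median window would give 234, and 12 of the 16, GFAP among them, were at 0 in the untreated library. In the DMSO library 4 of the 16 were at 0, and GFAP, MT3, NTRK2 and SYT1 had 514, 188, 119 and 80 reads. NEFM, GAD1 and NEFL, at 0 in both libraries, could hardly be read, with 0, 458 and 490 bases that lie in no other window. The myeloid markers held 5 untreated and 78 DMSO reads, against 23.4 at that ratio. Members held 13260 untreated and 49962 DMSO reads, which are 2.52% and 2.22% of the reads outside ribosomal RNA and mitochondrial windows, whereas members are 3.36% of windows.

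How much of a member can be read depends on its neighbours, since the count table holds no read in a base that 2 windows share. All 1154 windows without an unshared base, 37 members among them, were at 0. This held whatever the strand of the neighbour, so a read in a member cannot be assigned to the antisense or the sense strand. Of the members 612 (49.4%) shared a base with another window, against 38.8% of all windows, and 420 overlapped the window of their own sense gene. The start itself was unshared in 716 members (57.8%), against 1021 (82.5%) for the base 3000 upstream of it. In 376 members (30.4%) no base downstream of their own start was unshared, so that all their reads, 1291 untreated and 4006 DMSO, lie upstream of the start they are named for.

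**Figure D1:**
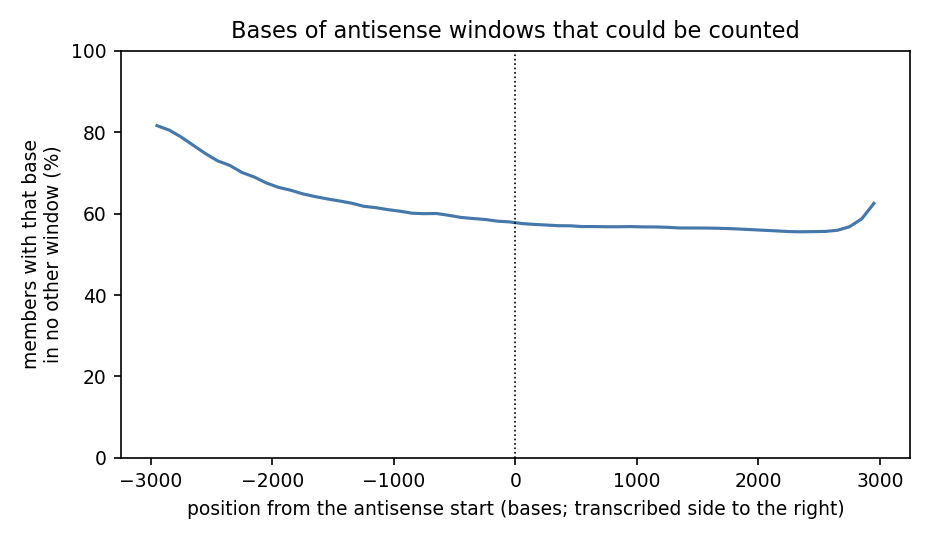
The x axis gives the position from the annotated antisense start in bases, with the transcribed side to the right, and the y axis the percent of the 1238 members in which that base lies in no other window. The line starts at over 80% on the upstream side, is at 57.8% at the start and stays under 65% downstream.

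Most antisense windows held few reads, and 50 of them held about as many as all the others. Reads were found in 610 members untreated and in 971 with DMSO, with medians of 0 and 5 reads, and 251 members had none in either. The 50 members with most reads held 49.5% of the members' untreated and 51.4% of their DMSO reads. At least 1 CPM in both libraries was reached by 406 of 1238 members (32.8%, 95% Clopper-Pearson interval 30.2% to 35.5%), against 34.7% of all windows, and 3 untreated reads suffice for this level. Among members that share no base 260 of 626 (41.5%) reached it, against 42.1% of all such windows. At 5 CPM in both libraries it was 239 members (19.3%, 17.1% to 21.6%), against 23.2% of all windows. Their own sense windows reached 1 CPM in both libraries in 294 of 1103 cases (26.7%), and these lose reads in bases shared with the antisense windows.

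GAS5-AS1 (chromosome 1, 173859473 to 173865472) had the most reads, 793 untreated and 2790 DMSO, which is a mean level of 92.9 CPM per kb of unshared bases. Its window also lies over GAS5, a host gene of small nucleolar RNAs, and holds SNORD47, SNORD79, SNORD80 and SNORD81, so its level cannot be assigned to the antisense RNA. CIRBP-AS1 (chromosome 19, 1267261 to 1273260) had 251 and 2003 reads, 56.9 CPM per kb, in a window that holds a RefSeq start of CIRBP, which encodes a cold-inducible RNA-binding protein. GATA2-AS1 (chromosome 3, 128486212 to 128492211), named for the blood stem cell and progenitor factor GATA2, stood at 41.5 CPM per kb, and its window holds another RefSeq start of GATA2. In these 3 windows reads of the overlapping gene cannot be told from reads of the antisense RNA.

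Other windows of high level hold no start of their sense gene. RCC2-AS1, at 32.9 kb from the start of RCC2, a chromosome condensation protein gene, had 277 and 861 reads. HM13-AS1, opposite the signal peptide peptidase gene HM13, had 230 and 785 reads, TNRC6C-AS1 214 and 630, and ADAMTSL4-AS1 204 and 509. RCC2-AS1 has 3000 of its 6000 unshared bases in the body of RCC2. Other RefSeq genes cover 3254 of 6000 in HM13-AS1, with a start of LOC107985416, and 2181 of 5186 in ADAMTSL4-AS1. Reads of these genes cannot be told from reads of the antisense RNAs. TNRC6C-AS1 is listed in RefSeq as a synonym of TMC6. NDUFB2-AS1, opposite a gene of respiratory complex I, had 138 and 753 reads in a window that does hold a RefSeq start of NDUFB2.

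Per kb, among members with at least 1000 unshared bases, 5 further members were in the first 10. MID1IP1-AS1 stood at 37.6 CPM per kb, all of it upstream of its own start, RUSC1-AS1 at 29.4, ZEB2-AS1 at 27.3, RASSF1-AS1 at 25.6 and PTOV1-AS2 at 22.1. The first 4 start under 3.5 kb from the start of their sense gene, where only the outer parts of the window are unshared. For ZEB2-AS1, opposite a zinc finger repressor gene, 3080 bases were unshared and 80 of them lay downstream of its start. In all, 89 members (7.19%) hold a RefSeq start of their sense gene in unshared bases. Among the 20 members of highest mean CPM these were 6 (30.0%), and among the 156 members past the expression floor, explained with the ratios, they were 40 (25.6%).

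**Figure D2:**
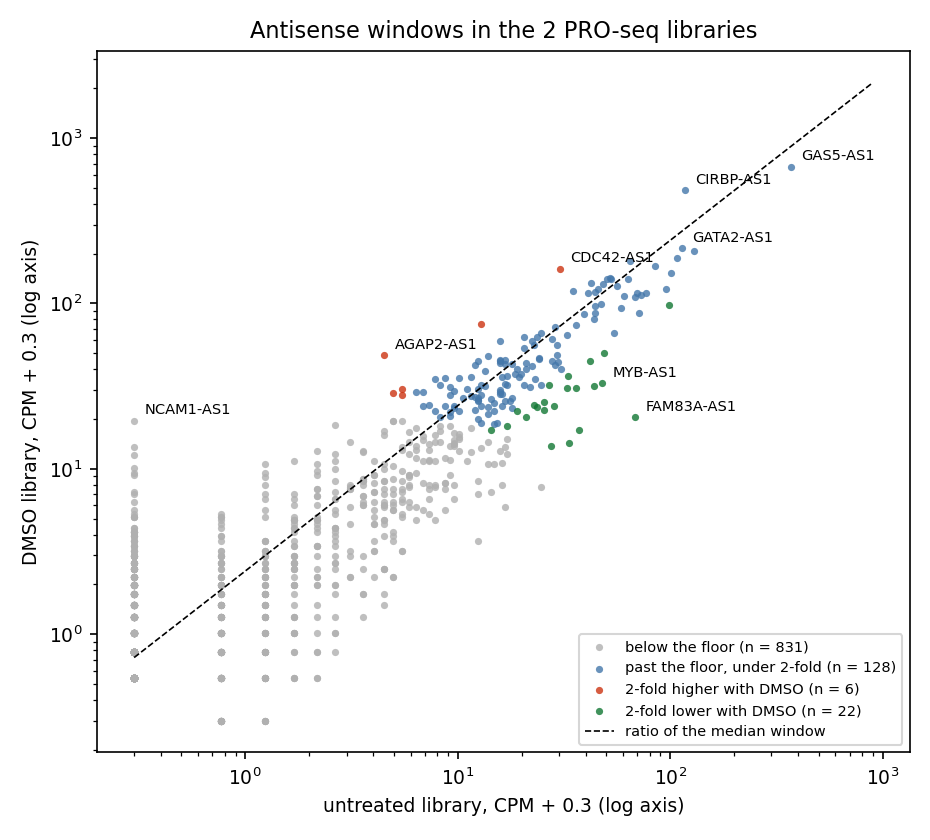
Each point is a member with a read in either library, with CPM + 0.3 in the untreated library on the x axis and in the DMSO library on the y axis, both on log scales, and the dashed line is the ratio of the median window. GAS5-AS1 with 793 and 2790 reads stands highest, and of the 156 members past the floor 22 lie below and 6 above the line by 2-fold or more.

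The position of the antisense start against the sense start set how much of a window could be read. In 296 members the antisense start lies 0 to 3 kb downstream of the sense start, so that the genes point at each other and overlap, and their median unshared length is 694 bases, all of it upstream of the antisense start. Of these 56 (18.9%) reached 1 CPM in both libraries. Divergent members, with a start 0 to 3 kb upstream of the sense start, number 75, have a median of 105 unshared bases, and 3 of them (4%) reached this level. The commonest arrangement was a start over 6 kb downstream of the sense start, inside or beyond the sense gene, with 797 members, of which 306 (38.4%) reached it. The 49 members that start 3 to 6 kb downstream reached it in 33 cases (67.3%, interval 52.5% to 80.1%), with a median of 4039 unshared bases.

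**Figure D3:**
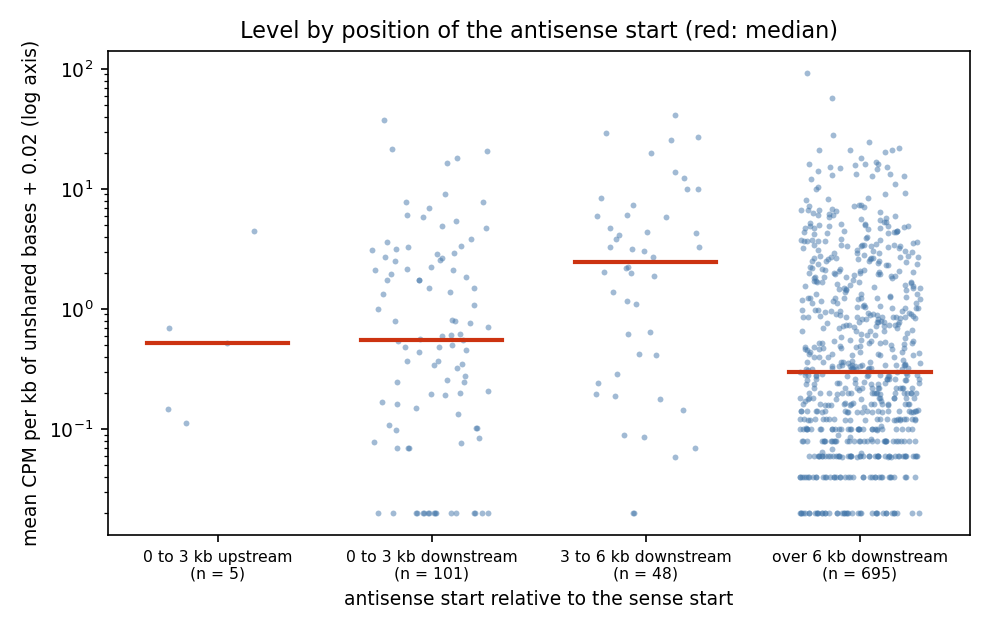
The y axis is the mean CPM of both libraries per kb of unshared bases plus 0.02, on a log scale, for members with at least 1000 unshared bases, by the position of the antisense start against the sense start on the x axis. Points are members and red bars are medians, and the median of 2.46 CPM per kb over members 3 to 6 kb downstream stands over medians of 0.53 and 0.28 in the other downstream groups.

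At 3 to 6 kb downstream the windows of both genes overlap at their outer ends, and reads in the overlap are not in the counts. Per kb, the median over the members with enough unshared bases was 2.46 CPM there, 0.53 at 0 to 3 kb and 0.28 over 6 kb downstream. Among 615 fully unshared members with both genes in the tables, a window with no base in the body of its sense gene reached 1 CPM in both libraries in 35 of 105 cases (33.3%, interval 24.4% to 43.2%). Windows partly covered by the sense body did so in 46 of 85 (54.1%, 43.0% to 65.0%) and windows wholly covered by it in 175 of 425 (41.2%, 36.5% to 46.0%). Of the partly covered windows 20 hold a RefSeq start of the sense gene. Of 85 members with at least 1000 unshared bases, none of them in another RefSeq gene, 26 (30.6%) reached the level and 15 passed the floor.

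Where the antisense window and the sense window share no base, their levels followed each other more closely at short distance. Over 64 pairs 6 to 20 kb apart Spearman's rank correlation between the mean CPM of the windows was 0.760, over 95 pairs at 20 to 50 kb 0.667, over 61 pairs at 50 to 100 kb 0.600 and over 208 pairs at more than 100 kb 0.297. All points share the same 2 libraries, sense genes with several members recur, and reads of a sense gene that continue into an antisense window on its body enter both values. The antisense window holds a RefSeq start of the sense gene in 11, 12, 5 and 8 of the pairs, from the nearest group to the farthest. The share of members that reached 1 CPM in both libraries was 51.6%, 52.6%, 37.7% and 26.4% in the same order. At more than 100 kb, 34 pairs had only the antisense and 18 only the sense window at this level.

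Levels within a locus were compared in 259 pairs of 242 sense genes in which each window had at least 1000 unshared bases and the pair had at least 50 reads. The antisense window had more CPM per kb in 117 of them (45.2% of all pairs compared), and the median log2 of antisense over sense level was -0.42 (quartiles -2.25 and 2.21). Differences were large in either direction, with 68 pairs at least 4-fold higher in the antisense and 73 at least 4-fold higher in the sense window. Where the antisense window holds a RefSeq start of the sense gene it was the higher in 31 of 38 pairs (median 2.11), and elsewhere in 86 of 221 (median -0.72). The pairs were also split by the annotation of the sense gene, after their values were seen. In 43 pairs the sense window does not hold the RefSeq start of its gene, and there the antisense window was the higher in 35 (81.4%, median 2.97), against 57 of 156 (36.5%, median -0.84) where it does. For the other 60 pairs the RefSeq promoter table holds no start of the sense gene on that chromosome. Pairs in which neither window shares a base gave 58 of 161 (36.0%, median -1.04).

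**Figure D4:**
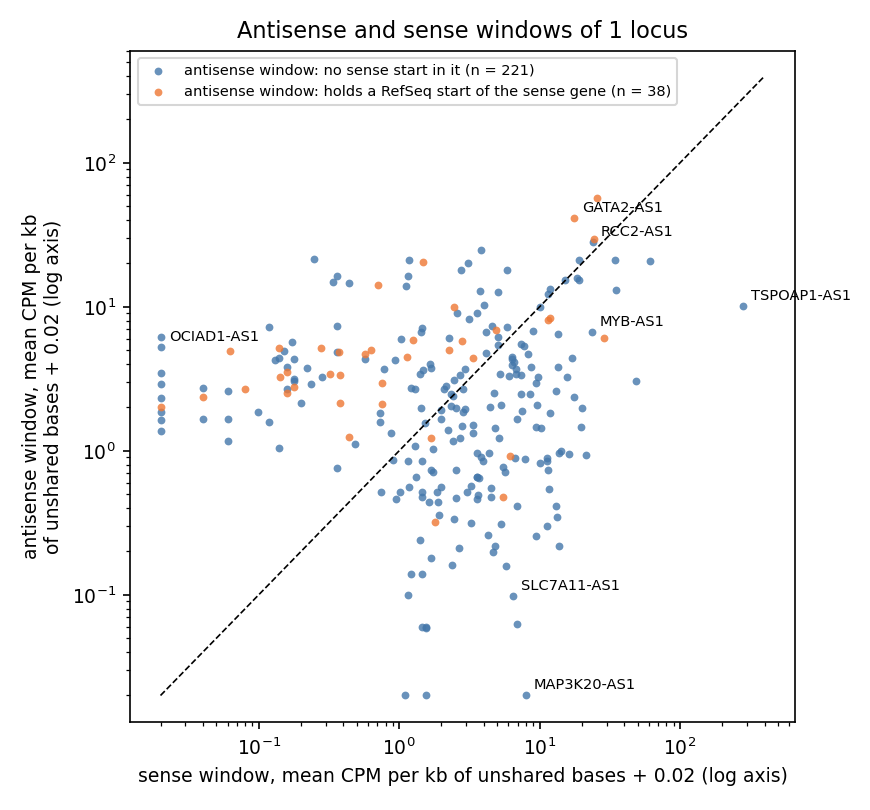
Each point is 1 of 259 pairs, with the mean CPM per kb of unshared bases plus 0.02 of the sense window on the x axis and of the antisense window on the y axis, both on log scales, and the dashed line marks equal levels. Of the 38 orange points, whose antisense window holds a RefSeq start of the sense gene, 31 lie above the line, as do 86 of the 221 blue points.

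At the high end, several antisense windows had reads beside a sense window at 0, for which a bound was computed from 3 reads in each library. EXTL3-AS1 (chromosome 8, 28699031 to 28705030), opposite a heparan sulfate synthesis gene, had 33 untreated and 245 DMSO reads, at least 35.0-fold over EXTL3. All 6000 bases of the EXTL3-AS1 window lie in the body of EXTL3. Whether the window of EXTL3 holds its RefSeq start could not be checked. OCIAD1-AS1 had 69 and 126 reads and at least 29.5-fold, where the window of OCIAD1 does not hold its RefSeq start. Of the 6000 bases of the OCIAD1-AS1 window 4612 lie in the body of OCIAD1. F11-AS1, opposite the coagulation factor XI gene, had 29 and 59 reads and at least 13.1-fold, and FRMD6-AS1 12 and 68 reads and at least 10.3-fold. F11 and FRMD6 have their RefSeq starts in windows of 6000 unshared bases without a read, so the reads of each pair lay in the antisense window. The F11-AS1 window is centred 235 kb from the start of F11 and has no base in the body of F11. All 6000 bases of the FRMD6-AS1 window lie in the body of FRMD6, so reads of FRMD6 cannot be told apart there. PRR29-AS1 had 76 and 127 reads against 1 and 1 in an equal length of the PRR29 window. All 1549 unshared bases of PRR29-AS1 lie upstream of its own start and in the body of PRR29. TFAP2A-AS2, which starts 15.2 kb from TFAP2A, a developmental factor gene, had 51 and 190 reads against 1 and 3.

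At the low end the sense gene was read and the antisense window was at or near 0. MAP3K20-AS1 had 0 reads in either library while MAP3K20, a stress-activated kinase gene, had 36 and 325, at least 44.7-fold more. RNF157-AS1 had 0 and 1 read against 44 and 256, and TBX18-AS1 2 and 6 against 58 and 389. SLC7A11-AS1 had 2 and 0 reads while SLC7A11, the cystine transporter gene of the amino acid stress response, had 129 untreated and 70 DMSO reads. NAALADL2-AS1 and SOX9-AS1 had no reads against 5 and 67 in NAALADL2, at least 8.68-fold more, and 0 and 54 in SOX9, at least 6.11-fold more. These antisense windows were not short of readable length, since all but RNF157-AS1, with 2814, have 6000 unshared bases.

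Setting the DMSO library beside the untreated one addresses the effect of a solvent on the profile. The ratio was read in the 156 members (12.6%) that passed an expression floor, a mean level of 5 CPM with 100 reads in all, which 17.9% of all windows passed. It is given as log2 DMSO/untreated relative to the median window past the floor, at which 4.68 DMSO reads stand for each untreated read. Of the 156 members 6 (3.85%) were at least 2-fold higher with DMSO, against 6.86% of all windows past the floor, and 22 (14.1%) were at least 2-fold lower, against 7.97%. The median ratio was -0.26, against 0 over all windows past the floor, and 101 of the 156 lay below 0. Without centring on the median window 12 members (7.69%) were higher and 11 (7.05%) lower under TMM scaling, against 14.4% and 3.43% of all windows. The median was then 0.03 against 0.30 for all windows. With library totals and no centring 78 (50%) were higher and 4 (2.56%) lower, against 65.7% and 0.47% of all windows. The median was then 1.00 against 1.27 for all windows. The split of calls thus follows the scaling, while the distance of the members' median from that of all windows is the same in each by construction.

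Calls became fewer when counting error was taken into account. The interval lay wholly beyond 2-fold higher for 1 member (0.641%), against 1.44% of all windows past the floor, and wholly beyond 2-fold lower for 9 (5.77%), against 2.73%. Members past the floor had a median of 194 reads, fewer than the 250 of all windows past it, and the median ratio of all windows itself rises with the number of reads. Within groups of like read number the members' medians were still below those of all windows. They were -0.35 against -0.22 at 100 to under 150 reads and -0.33 against -0.09 at 150 to under 250 reads. At 250 to under 500 reads they were -0.14 against 0.09, and at 500 or more -0.23 against 0.13. The share at least 2-fold lower was above that of all windows in the first 3 groups, at 18.9% against 14.6%, 17.3% against 8.93% and 9.52% against 4.55%, and below it at 500 or more reads, with 1 of 30 members (3.33%) against 4.78%. The spread between the libraries, as the root of the dispersion over all windows past the floor, is 35.7% and cannot be told apart from the treatment.

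At the highest ratio, antisense and sense windows of a locus were high together. AGAP2-AS1 (chromosome 12, 57723271 to 57729270), opposite a GTPase-activating protein gene of the PI3 kinase pathway, had 9 untreated and 201 DMSO reads, a ratio of 2.18 (1.30 to 3.41). AGAP2 itself had 12 and 231 reads and a ratio of 1.99. Both windows were thus low untreated and well read with DMSO. All 4760 unshared bases of the AGAP2-AS1 window lie in the body of AGAP2. Reads of AGAP2 cannot be told from reads of the antisense RNA there.

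For most of the next members the sense window gave no ratio to set beside theirs. TSPOAP1-AS1 had 27 and 309 reads, 1.27 (0.72 to 1.92), while TSPOAP1, whose window also holds the blood cell microRNA gene MIR142, had 782 and 3217 and -0.19. CDC42-AS1, opposite the gene of a small GTPase of cell polarity, had 64 and 674 reads, 1.16 (0.80 to 1.56), in a window that holds a RefSeq start of CDC42, and the window of CDC42 has no unshared base. FOCAD-AS1 had 10 and 118 reads, 1.27, STIM2-AS1 11 and 125, 1.22, and SDCBP2-AS1 11 and 115, 1.10. Each of these windows also holds a RefSeq start of its sense gene, and the sense windows, with 2 and 4 reads at FOCAD, 12 and 47 at STIM2 and 16 and 73 at SDCBP2, were below the floor. Under 2-fold was MIF-AS1 with 13 and 119 reads, 0.92. MIF, which encodes a macrophage cytokine, had 66 and 383 reads and a ratio of 0.30.

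The lowest ratios included the antisense windows of 2 transcription factor genes, CEBPB and MYB. FAM83A-AS1 (chromosome 8, 123199744 to 123205743) had 146 untreated and 84 DMSO reads, a ratio of -3.02 (-3.43 to -2.63), with 4 and 3 reads in FAM83A. CEBPB-AS1 (chromosome 20, 50188499 to 50194498) had 71 and 58 reads, -2.52 (-3.04 to -2.0), and the window of CEBPB, below the floor, had 8 and 3. Its 669 unshared bases all lie upstream of its own start and at least 3 kb downstream of the start of CEBPB, a leucine zipper factor of myeloid and stress responses. MYB-AS1 (chromosome 6, 135192996 to 135198995), 14.7 kb from the start of MYB, a factor of blood progenitor growth, had 102 and 135 reads, -1.82 (-2.20 to -1.44). The window at the start of MYB had 230 and 723 reads and a ratio of -0.58, nearer to the median window. All 6000 bases of the MYB-AS1 window lie in the body of MYB, and those of FAM83A-AS1 in the body of FAM83A. Reads of the sense gene cannot be told from reads of the antisense RNA in these 2 windows.

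The other low members were opposite genes of varied function. CNOT10-AS1, opposite a subunit gene of the mRNA deadenylase complex, had 79 and 70 reads and -2.40 (-2.89 to -1.92), while CNOT10 had 64 and 192 and -0.65. XIAP-AS1, opposite the gene of a caspase inhibitor, had 58 and 56 reads and -2.28 (-2.83 to -1.72), while XIAP had 36 and 189 and 0.15. TNFRSF10A-AS1, opposite a TRAIL receptor gene, had 93 and 130 reads and -1.74 (-2.14 to -1.34). ITPRIP-AS1 had 60 and 99 reads and -1.51, where ITPRIP was at -0.36, and PRR29-AS1 stood at -1.49. The windows of CNOT10-AS1 and ITPRIP-AS1 lie with all their 6000 bases in the bodies of CNOT10 and ITPRIP. There too, reads of the sense gene cannot be told from reads of the antisense RNA. In the 53 pairs with both windows past the floor, 8 antisense windows were 2-fold lower with DMSO and 0 of their sense windows were, where 7.97% of all windows past the floor are, so that 8 windows are too few to read the pairs against it. Of the 2 that were 2-fold higher, 1 had its sense window higher too, AGAP2. Over these 53 pairs Spearman's rank correlation between antisense and sense ratios was 0.069 and Pearson's r 0.239, a description over windows that share the same 2 libraries.

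**Figure D5:**
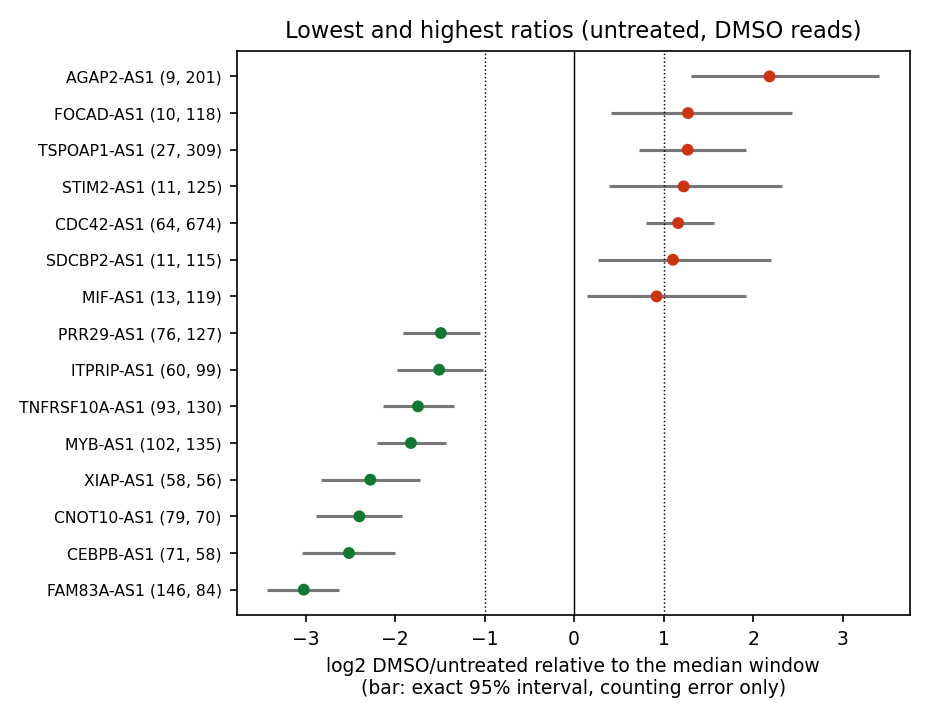
Points are the log2 DMSO/untreated ratios relative to the median window of the 8 lowest (green) and 7 highest (red) members past the floor, and bars are exact 95% intervals for counting error. The y axis lists the members with their untreated and DMSO reads, dotted lines mark 2-fold, and AGAP2-AS1 at 2.18 and FAM83A-AS1 at -3.02 lie at the ends.

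Some members were read with DMSO and not in the untreated library. Of 341 members with at least 20 DMSO reads 14 (4.11%) had 0 untreated reads, against 2.5% of all windows with as many. NCAM1-AS1 (chromosome 11, 113271033 to 113277032), opposite a neural cell adhesion gene, had 80 DMSO reads, where the median window's ratio would give 17.1 untreated reads. Against 3 untreated reads this is at least 5.70-fold over the median window. SEPTIN4-AS1 had 49 DMSO reads (at least 3.49-fold). Others of the 14, picked out after their values were seen, are PRICKLE2-AS1 with 41 DMSO reads, DLGAP1-AS3 with 37, SRGAP3-AS4 with 28, KCNMA1-AS1 with 25 and NTM-AS1 with 20. The rest of the 14 are not named here, so those named do not stand for the set. In the grouping by sense gene given below, 4 of the 14 are opposite ion channel and synapse genes. The windows of NCAM1 and PRICKLE2 had no read. The summed reads of the 16 neural markers were also above the median ratio, with 1210 DMSO reads against 234, mostly from GFAP, MT3, NTRK2 and SYT1, as were those of the 6 myeloid markers, with 78 against 23.4. SLC17A7 was near the median window, at 0.17. NEFM, GAD1 and NEFL had no read, in windows of only 0, 458 and 490 unshared bases. The part of either in these members was not tested. In the other direction 16 members had only untreated reads, with no more than 2 each. SLC7A11-AS1, CRTC3-AS1, MYLK-AS1 and RNASEH1-AS1 had 2 untreated and 0 DMSO reads, a difference within counting error.

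Grouped by the function of the sense gene, the share of antisense windows that reached 1 CPM in both libraries ran from 15.7% opposite ion channel and synapse genes to 54.5% opposite blood transcription factor genes. Several groups are small, most were formed by the spelling of the symbol, and no difference between them was tested. Of 83 members opposite ion channel and synapse genes 13 (15.7%) reached 1 CPM in both libraries, against 34.7% of all windows, with a median of 0 untreated and 6 DMSO reads, and 4 of the 14 members read only with DMSO are among them. In this group 3 members passed the floor. DLGAP1-AS2 had 210 and 403 reads (-1.29) and DLGAP1-AS1 57 and 132 (-1.02). Both start over 850 kb downstream of the start of DLGAP1, a synaptic scaffold gene whose window had 0 and 17 reads. All 6000 bases of each antisense window lie in the body of DLGAP1, so reads of DLGAP1 cannot be told apart there. The third was DPP9-AS1, which opposes a peptidase gene and is here by spelling, with 42 and 154 reads. The ratio of DLGAP1-AS1 turned to 0.24 with library totals and no centring.

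Of 11 members opposite blood transcription factor genes 6 (54.5%) reached 1 CPM in both libraries. GATA2-AS1, MYB-AS1 and CEBPB-AS1 passed the floor, with MYB-AS1 and CEBPB-AS1 at least 2-fold lower with DMSO. BACH1-AS1, opposite a heme-responsive repressor gene, had 19 and 74 reads. The erythroid markers had 2.89 DMSO reads per untreated read, under the 4.68 of the median window. So were the lymphoid (3.36) and the epithelial, liver and fibroblast markers (3.625), while the myeloid (15.6) and neural (24.2) markers were above it.

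Members opposite developmental transcription factors numbered 40, of which 13 (32.5%) reached the level. ZEB2-AS1 had 97 and 509 reads (0.16), NR2F2-AS1 17 and 74, and PAXIP1-AS1, which its spelling places here, 15 and 30. The reads of NR2F2-AS1 all lie upstream of its own start and in the body of NR2F2. All of the 323 readable bases of PAXIP1-AS1 lie downstream of its own start, in a divergent arrangement. Of 45 members opposite zinc finger genes 17 (37.8%) reached 1 CPM and 5 passed the floor, none of them past 2-fold. ZNF710-AS1 had 93 and 333 reads, ZNF213-AS1 50 and 258, ZNF252P-AS1 47 and 246 and ZNF197-AS1 38 and 177.

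Members opposite housekeeping genes stood near the share of all windows. Of 16 in the cell cycle and replication group 6 (37.5%) reached 1 CPM. They included PRC1-AS1, opposite a spindle midzone protein gene, with 116 and 274 reads (-0.99), RRM1-AS1, opposite a ribonucleotide reductase gene, with 27 and 114, and CCND2-AS1, opposite the cyclin D2 gene, with 36 and 50. The reads of CCND2-AS1 all lie upstream of its own start and in the body of CCND2. CDC42-AS1 belongs to this group by spelling. Of 30 in the RNA and ribosome group 13 (43.3%) reached it, led by RPS6KB2-AS1, a kinase gene's antisense that falls here by spelling, with 43 and 259 reads. RBM5-AS1, opposite a splicing regulator gene, had 59 and 185 reads and GTF3C2-AS1 44 and 180. Of 16 in the mitochondrial group 7 (43.8%) reached it, with SLC25A25-AS1 at -0.11 and NDUFB2-AS1 at 0.22, SUCLA2-AS1 with 19 and 129 reads and, by spelling, MTOR-AS1 with 31 and 102.

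Of 25 members opposite solute carriers 7 (28%) reached 1 CPM, among them SLCO4A1-AS1 with 35 and 178 reads and SLC12A9-AS1 with 27 and 99. SLC25A5-AS1 had 19 and 46 reads, all upstream of its own start. Of 33 in the ubiquitin and proteasome group 13 (39.4%) reached it. UBE2D3-AS1, opposite an E2 ubiquitin-conjugating enzyme gene, had 111 and 591 reads in a window that holds a RefSeq start of UBE2D3, USP3-AS1 had 44 and 165, USP2-AS1 33 and 185 and UBE2Q1-AS1 27 and 133. Of 75 in the signalling group 23 (30.7%) reached it. RASSF1-AS1, opposite a tumour suppressor gene of the Ras pathway, had 145 and 456 reads, MAP3K14-AS1 74 and 495, PRKCZ-AS1 59 and 252 and ARAP1-AS1 62 and 231. None of the 3, 4 and 9 members past the floor in these groups was past 2-fold.

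Of 6 members opposite stress response genes 2 (33.3%) reached 1 CPM. HIF1A-AS3, which starts 55.6 kb from the start of the hypoxia factor gene HIF1A, had 16 and 92 reads (0.26), DNAJC9-AS1 4 and 20, STARD4-AS1 2 and 14 and DNAJC27-AS1 1 and 3. The reads of DNAJC9-AS1 and DNAJC27-AS1 all lie upstream of their own starts. Only HIF1A-AS3 passed the floor in this group.

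A further group holds antisense RNAs that are well described in other cells, and of its 47 members 22 (46.8%) reached 1 CPM and 11 passed the floor. Of these DLGAP1-AS1 and DLGAP1-AS2 were at least 2-fold lower with DMSO and none was 2-fold higher. VPS9D1-AS1, which has been described in tumours, had 94 and 483 reads (0.13), and GATA2-AS1 and ZEB2-AS1 stood at -0.33 and 0.16. Several RNAs of this group could hardly be read. OIP5-AS1, an abundant cytoplasmic RNA also called Cyrano, has 17 unshared bases and no read, PSMA3-AS1 has 5 unshared bases and 1 DMSO read, and FGD5-AS1 has 841, all upstream of its start, with 2 DMSO reads. CDKN2B-AS1, also called ANRIL, lies in the 9p21 segment that K562 has lost in part, and had no read in 1163 unshared bases, all of them upstream of its own start. The CDKN2B window beside it had 2 and 6 reads. In windows of 6000 unshared bases, TTN-AS1, opposite the gene of the muscle protein titin, had 35 and 105 reads, EPB41L4A-AS1 33 and 180, AFAP1-AS1 15 and 100 and USP30-AS1 10 and 80. The members of this group outside the rule for named genes were picked after their values were seen.

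The 3 sense genes with 5 antisense windows show how unevenly members of a locus are read. At DLGAP1 the windows AS1 and AS2 held 57 and 210 untreated reads, and AS3, AS4 and AS5 held 0 untreated and 37, 2 and 11 DMSO reads. At NAV2, a neuron navigator gene, NAV2-AS2 had 7 and 24 reads and NAV2-AS3 11 and 12, while the other 3 had 0 untreated and at most 15 DMSO reads. At ZBTB20, a zinc finger repressor gene, each of the 5 had 1 to 3 untreated reads, and the highest with DMSO was ZBTB20-AS1 with 36. The sense windows of these genes had 0 untreated reads.

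Promoters of members differed by how much of the window is unshared and by level. Of the members 614 have a RefSeq start within 100 bases of the window's centre. Where under 1000 bases are unshared, as beside another gene start, the median promoter of 208 members holds 26 CpGs and 69.2% hold GGGCGG. Where at least 1000 are unshared, 181 members with 1 CPM in both libraries have a median of 7 CpGs and 29.8% hold GGGCGG, and 95 members with 2 reads or fewer have a median of 3 CpGs and 11.6%. All 35116 RefSeq promoters have a median of 14 CpGs. The 77 members past the floor, whatever their unshared length, have a median of 13 CpGs and 41.6% hold GGGCGG, near all promoters. With at least 1000 unshared bases, members at 1 CPM thus had more CpGs at the median than members nearly without reads. GATAAG was found in 7.73% of the 181 and 6.32% of the 95, near the 6.36% of all promoters.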

How the data were processed

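Nascent RNA was measured by PRO-seq in 2 K562 libraries, 1 untreated and 1 with DMSO. The deposited table holds counts of reads over windows of 6000 bases on hg38, and the submitters' processing notes name the aligner Bowtie2 2.3.5 and the read counter featureCounts 2.0.1. The deposited TPM were equal to CPM in all 36814 windows (tolerance 1e-06) and were not used further. Window starts, strands and names came from the table, and RefSeq genes and promoters from tables of GRCh38.p14. Exons, introns and UTRs were not used here.

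Levels are CPM, or mean CPM per kb of bases in no other window. Ratios used TMM factors of edgeR 4.0.16 (R 4.3.3), a prior count of 0.5 reads and a floor of 5 CPM and 100 reads, and were centred on the median window past the floor. Intervals are exact Clopper-Pearson intervals at 95%, and reads carry no molecular identifiers. Against 0 reads, bounds use 3 reads per library. Pairs needed 1000 unshared bases in each window and 50 reads. With 1 library per treatment no test was made. The ratio procedure and the unshared length were tested on simulated data.

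Members, the 12 lists of sense genes and all thresholds were chosen with earlier results of these data known. The 12 lists were those for blood factors, developmental factors, zinc finger genes, cell cycle, RNA and ribosome, mitochondria, channels and synapses, solute carriers, ubiquitin, stress, signalling and well-described antisense RNAs, and several take genes by the spelling of their symbol. Named members were the 10 of highest CPM and of highest CPM per kb, the 8 highest and 8 lowest ratios, the 3 with most reads against 0, the 6 highest and 6 lowest pairs and 4 from each list, and windows of the Y chromosome were not named. A few members chosen by this rule are not reported here, and exceptions are stated. Alternatives covered scaling (library totals, DESeq2 1.42.0 size factors), centring, floor, prior count, thinning of the DMSO library, unshared length and pair rules.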

Additional observations from a re-analysis of the deposited data

How the results depend on the processing

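No paired analysis was possible because the comparison rests on 1 untreated and 1 DMSO library, and for the same reason no replicate could be left out. The counts of members at least 2-fold higher and lower with DMSO, 6 and 22, kept within 1.5 times at a prior count of 2. They did so too under library totals or DESeq2 size factors with centring, which removes any difference in scaling. At a floor of 1 CPM and 20 reads 40 and 70 of 376 members were higher and lower (10.6% and 18.6%, against 12.4% and 12.2% of all windows). At 20 CPM and 400 reads they were 1 and 3 of 34 (2.94% and 8.82%, against 3.99% and 6.15%). Over members with any read they were 201 and 193 of 987 (20.4% and 19.6%, against 17.9% and 16.7%). The higher share was then above that of all windows. At 1.5-fold the counts of higher and lower members were 13 and 48 of 156 (8.33% and 30.8%, against 18.4% and 19.6%). With the DMSO library thinned to the untreated reads outside ribosomal RNA and mitochondrial windows they were 1 and 8 of 56. These are 1.79% and 14.3%, against 4.77% and 8.17% of all windows. Without centring the counts were 12 and 11 under TMM (7.69% and 7.05%, against 14.4% and 3.43% of all windows). Under library totals they were 78 and 4 (50% and 2.56%, against 65.7% and 0.47%). The median ratio then turned to 0.032 and 1.00, since the median of all windows is above 0. Among named members at least 2-fold higher or lower, only DLGAP1-AS1 changed sign under library totals without centring, to 0.24. Without windows that share a base 2 and 19 of 105 members were higher and lower (1.90% and 18.1%, against 6.73% and 8.01% of all windows). The median ratio was -0.36 at the floor of 20 CPM and -0.084 over any read. At 5 CPM in both libraries 239 members remained of 406, or 19.3% against 23.2% of all windows. The antisense window was the higher in 58 pairs without shared bases (median -1.04), in 57 pairs whose sense window holds its RefSeq start (median -0.84), and in 223 and 54 pairs at minimums of 10 and 200 reads, fewer or more pairs being compared. The cause of the other shifts was not tested. Of the ratios of 59 named members past the floor, all 59 stayed within their interval at a prior count of 2, 57 with the DMSO library thinned and 45 under TMM without centring. With library totals and no centring all 59 left their interval. Many ratios below 0 changed sign there, such as GATA2-AS1 from -0.33 to 0.93 and ADAMTSL4-AS1 from -0.91 to 0.36. Totals or DESeq2 size factors with centring give the same ratios by construction. The settings with library totals and no centring, without windows that share a base, and by the RefSeq starts of the sense gene were chosen after seeing the data. Depth limits the untreated library most, in which the median member has 0 reads.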
